A study of Mus musculus with 2 samples.

Results

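The genes described here encode the extracellular matrix of brown adipose tissue and the enzymes that shape it: collagens, laminins, nidogen, matrix glycoproteins and proteoglycans, lysyl oxidases, matrix metalloproteinases, their inhibitors, and ADAMTS proteases. They were chosen by gene symbol alone, and 53 of the 10761 gene symbols used here matched. The same name rule matches 125 symbols in the GENCODE M21 mouse annotation, so the genes below are those with a row in the table used here. One match, Col4a3bp, encodes a ceramide transfer protein and no collagen. The other 52 are matrix genes. Col4a3bp has a role of its own and is in no collagen group, but counts, ranks and shares over all members include it.

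The brown adipose tissue was taken from C57BL6/J males, 8 to 12 weeks of age, after 10 days on a high-fat diet (60% of energy from fat). The SML group also received SML intraperitoneally at 5 mg per kg body weight, and the HFD control group ate the same diet without SML. Sesaminol, a lignan from sesame, is named in the title of the series, whereas the sample labels use SML alone. Poly(A) RNA was sequenced as 1 library per group, with 8507264 fragments in the deposited table for SML and 12005329 for HFD control. How many animals each library was made from was not stated in the labels. With 1 library per group no test was possible: every difference below is between 2 libraries and has no replicate check. The 95% intervals cover counting error only, and not the spread between animals or duplicate molecules from PCR.

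In fat depots, fibrillar collagens form the tension-bearing fibrils between cells and around vessels, while a basement membrane of type IV collagen, laminin and nidogen encloses each adipocyte and underlies the endothelium of each capillary. Collagen chains are modified in the endoplasmic reticulum, secreted as trimers, trimmed, and cross-linked outside the cell by lysyl oxidases. Metalloproteinases and their inhibitors set how fast the matrix is removed. Most of these genes are known from fibroblasts, endothelial and mural cells, and adipocytes make type IV and type VI collagen and laminin as well. In bulk tissue, fewer cells of a type and less RNA per cell cannot be told apart.

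Fibrillar and type IV collagens, which are compared below, differ in their coding sequence. A collagen triple helix repeats a triplet of residues led by glycine, whose codons begin with GG, and fibrillar collagen genes carry the helix in small exons that start with such a codon. The following coding exons, from GENCODE M21 on GRCm38 and written 5′ to 3′ on the coding strand, show an unbroken repeat in 3 fibrillar chains and a broken one in both type IV chains. Capitals mark codons that begin with GG in the reading frame.
Col1a1 coding exon 8, chr11:94939904-94939957, plus strand: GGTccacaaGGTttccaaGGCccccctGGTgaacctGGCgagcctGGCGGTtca
Col1a2 coding exon 8, chr6:4515481-4515534, plus strand: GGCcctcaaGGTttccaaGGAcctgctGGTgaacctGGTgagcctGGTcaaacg
Col3a1 coding exon 6, chr1:45325360-45325413, plus strand: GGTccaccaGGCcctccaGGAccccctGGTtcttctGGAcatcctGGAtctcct
Col4a1 coding exon 13, chr8:11241122-11241208, minus strand: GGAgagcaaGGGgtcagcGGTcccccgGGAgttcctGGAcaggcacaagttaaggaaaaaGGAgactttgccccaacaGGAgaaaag
Col4a2 coding exon 19, chr8:11415926-11416075, plus strand: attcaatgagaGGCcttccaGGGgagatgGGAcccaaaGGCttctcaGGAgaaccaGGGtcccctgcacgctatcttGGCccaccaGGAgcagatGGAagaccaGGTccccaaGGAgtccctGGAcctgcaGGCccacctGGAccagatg

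The longest unbroken run of triplets led by a GG codon was 344 in Col3a1, 338 in Col1a1 and 339 in Col1a2. It was 40 in Col4a1 and 66 in Col4a2. Each of these 2 genes had 18 unbroken stretches of at least 10 triplets, with shorter stretches not counted. Col3a1, Col1a1 and Col1a2 had 2 such stretches each. Coding exons of 45, 54, 99, 108 or 162 bases made up 80.4% of the exons of Col1a1 and 15.4% of those of Col4a1. The fibrillar gene with the shortest run was Col27a1, at 217 triplets.

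**Figure D1:**
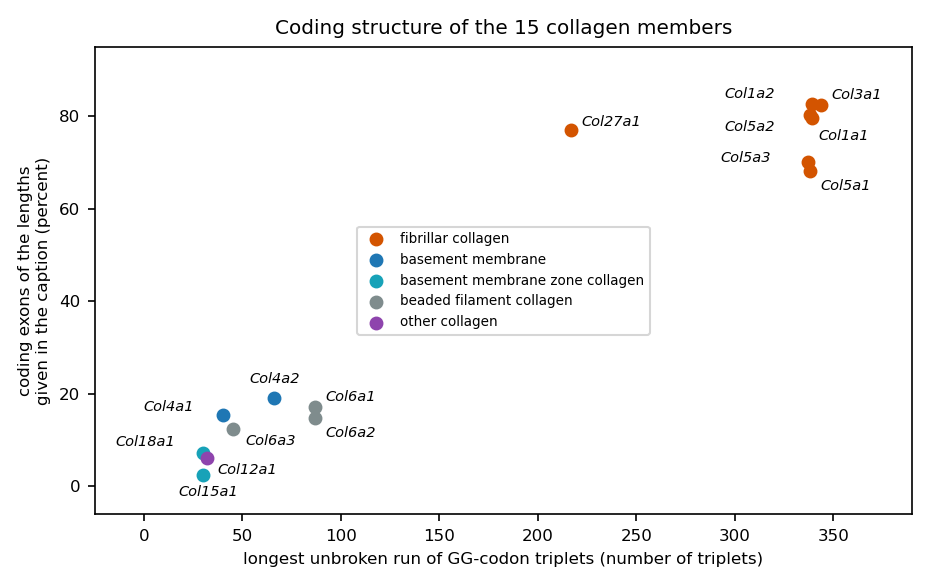
Each point is one of the 15 collagen members, with the longest unbroken run of triplets led by a GG codon (x axis, number of triplets) against the percent of coding exons of 45, 54, 99, 108 or 162 bases (y axis). The 7 fibrillar genes lie at the upper right, from 217 triplets for Col27a1 to 344 for Col3a1, and no other collagen exceeds the 87 triplets of Col6a1 and Col6a2.

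As a whole the matrix genes differed little between the libraries. FPKM, the deposited level, counts fragments relative to transcript length and library size. The difference of a gene is log2(FPKM + 1) in SML minus the same in HFD control, and genes at or past 1.5-fold on that scale were called higher or lower. All but 1 of the 53 symbols, Adamts10, had a mean FPKM of at least 1 and were kept, Col4a3bp among them. Of these 52, 2 were higher and 3 were lower in SML, where 5.45% of 9870 kept genes were higher, 5.74% were lower and 11.2% were either. The members' share past the rule was therefore near that of all genes. Their median difference was -0.11, beside 0.00 for all kept genes, and 31 of the 52 had a difference below 0 against 20 above. Without Col4a3bp the median was also -0.11, with 31 below 0 and 19 above. The quartiles of all kept genes were -0.21 and 0.22. Of the members 17 lay below the lower quartile, 27 lay between the quartiles and 8 lay above the upper one.

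**Figure D2:**
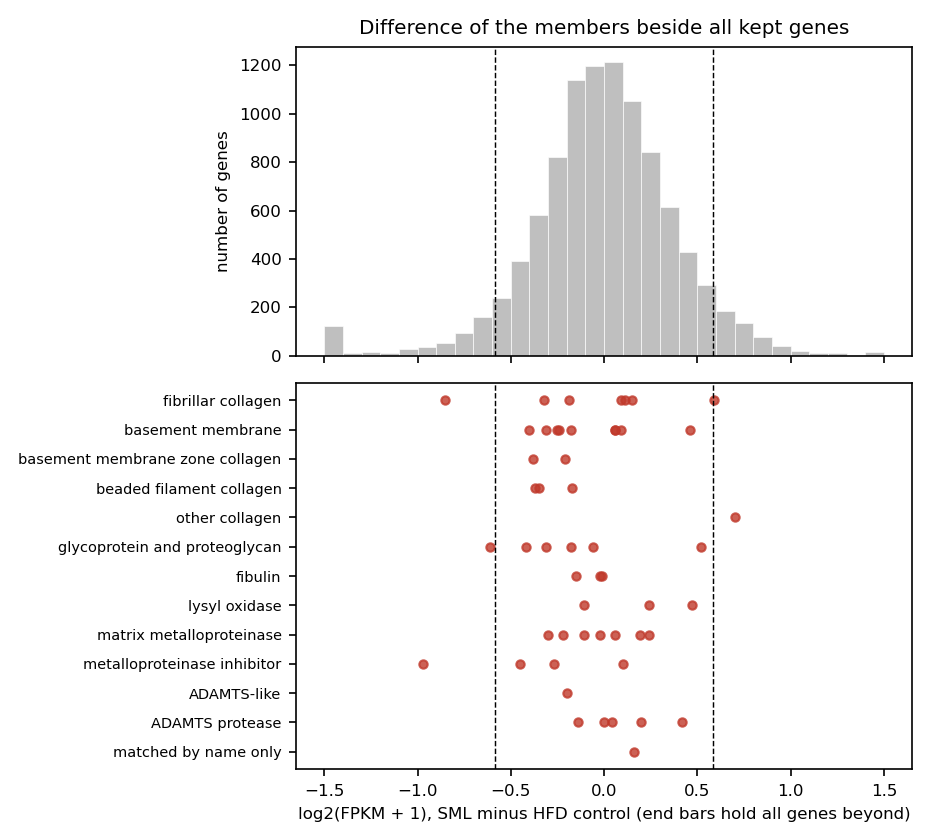
The upper panel counts all 9870 kept genes by their difference in log2(FPKM + 1), SML minus HFD control, with genes beyond either end in the end bars. The lower panel places the 52 kept members on the same axis by role, and the dashed lines mark the 1.5-fold rule: 2 members lie past the right line and 3 past the left one.

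The higher members were both collagens. Col12a1 encodes type XII collagen, which binds to the surface of fibrils, and stood at 2.57 FPKM in SML against 1.2 FPKM in HFD control, a ratio of scaled counts of 2.13 (95% interval 1.77 to 2.58, from 289 and 184 fragments). Col27a1, a fibrillar collagen known from cartilage, stood at 3.16 FPKM in SML against 1.76 FPKM in HFD control, a ratio of 1.8 (1.47 to 2.20). Both were among the low members, well under the abundant collagens. The difference of Col12a1, 0.70, was 0.56 once a trend with GC content and transcript length was removed, just under the rule.

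The lower members came from 3 roles. Col5a3, a type V collagen chain, stood at 4.12 FPKM in SML against 8.24 FPKM in HFD control, a ratio of 0.499 (0.428 to 0.580). Tgfbi, a secreted adhesion protein gene induced by TGF-beta, stood at 4.48 FPKM in SML against 7.34 FPKM in HFD control, a ratio of 0.609 (0.482 to 0.767), and its difference of -0.61 was -0.55 after removal of the GC and length trend and -0.56 with the total counts of the libraries set equal. Timp1, an inducible inhibitor of metalloproteinases, stood at 0.92 FPKM in SML against 2.77 FPKM in HFD control, and its ratio of 0.329 had a wide interval (0.106 to 0.779) because it rested on 6 and 26 fragments. None of the 5 members past the rule reached 2-fold on the log2(FPKM + 1) scale.

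**Figure D3:**
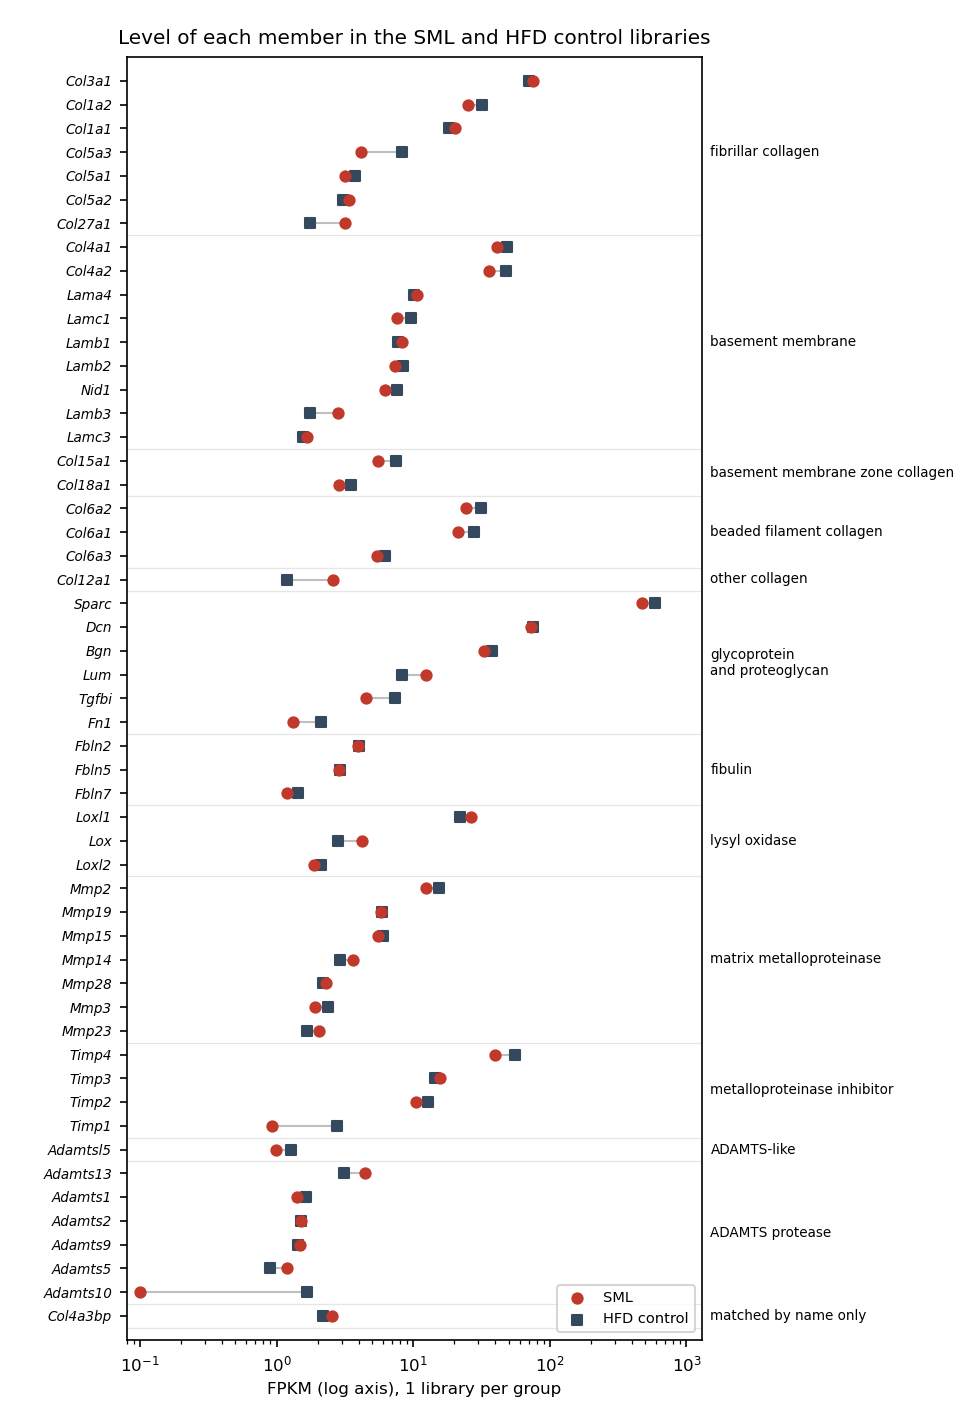
FPKM of each of the 53 members (log axis) in the SML library (red circles) and the HFD control library (dark squares), by role, with 1 library per group. Sparc is the highest in both libraries, and Col5a3, Col12a1, Col27a1, Tgfbi and Timp1 show visible gaps, as does Adamts10, whose SML value comes from a row discussed in the text.

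Levels kept nearly the same order in both libraries. Sparc, a collagen-binding glycoprotein abundant in fat, held 44.1% of the members' summed FPKM in SML and 47.0% in HFD control. It stood at 471 FPKM in SML against 585 FPKM in HFD control, a ratio of 0.804 (0.785 to 0.823). Next in SML came Col3a1, Dcn and Col4a1, and next in HFD control Dcn, Col3a1 and Timp4. The largest moves in rank were those of low genes, such as Timp1, which was 52nd of 53 in SML and 36th in HFD control, and Col12a1, which was 38th in SML and 52nd in HFD control.

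Fibrillar collagens did not move as one group. Of 7 kept members 1 was higher, 1 was lower and 5 were neither, with a median difference of 0.09. Over all kept genes 5.45% were higher and 5.74% lower. Col3a1, the type III collagen of compliant tissues, stood at 75.5 FPKM in SML against 70.7 FPKM in HFD control, a ratio of 1.07 (1.02 to 1.11). Col1a1 stood at 20.3 FPKM in SML against 18.3 FPKM in HFD control, with a ratio of 1.11 (1.01 to 1.21). Col1a2, whose chain joins that of Col1a1 in type I collagen, went the other way, with 25.4 FPKM in SML against 31.9 FPKM in HFD control and a ratio of 0.795 (0.741 to 0.854). Col5a1 and Col5a2, the chains of the type V collagen found in most tissues, had ratios of 0.847 (0.721 to 0.993) and 1.10 (0.915 to 1.33). The summed fibrillar counts had a ratio of 0.981 (0.951 to 1.01), and without Col3a1, which held more than any other member of the group, 0.887 (0.847 to 0.928).

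Basement membrane genes lay on both sides of an even ratio. Of 9 kept members 0 were higher and 0 were lower by the size rule, and their median difference was -0.18. Col4a1 and Col4a2, the chains of the main type IV network, stood at 41.4 and 35.9 FPKM in SML against 48.9 and 47.6 FPKM in HFD control. Their ratios were 0.845 (0.804 to 0.888) and 0.754 (0.715 to 0.794), and both intervals lay below 1. Nid1, which links laminin to type IV collagen, had 6.26 FPKM in SML against 7.64 FPKM in HFD control and a ratio of 0.819 (0.716 to 0.935).

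The 6 laminin chains differed among themselves and together had a ratio of 0.952 (0.901 to 1.01). Lama4, the alpha chain of laminins in fat and endothelium, stood at 10.6 FPKM in SML against 10.2 FPKM in HFD control, and Lamb1 at 8.25 FPKM in SML against 7.68 FPKM in HFD control. Both intervals included 1. Lamc1, the gamma chain shared by most laminins, stood at 7.58 FPKM in SML against 9.66 FPKM in HFD control, a ratio of 0.784 (0.705 to 0.872), and Lamb2 had a ratio of 0.868 (0.763 to 0.987). Lamb3, a chain of the laminin of epithelia, had the highest ratio of the group at 1.59 (1.18 to 2.12), with 2.81 FPKM in SML against 1.77 FPKM in HFD control, and a difference of 0.46 that stayed under the rule. Lamc3, a rarer gamma chain, had a ratio of 1.06 (0.801 to 1.40).

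**Figure D4:**
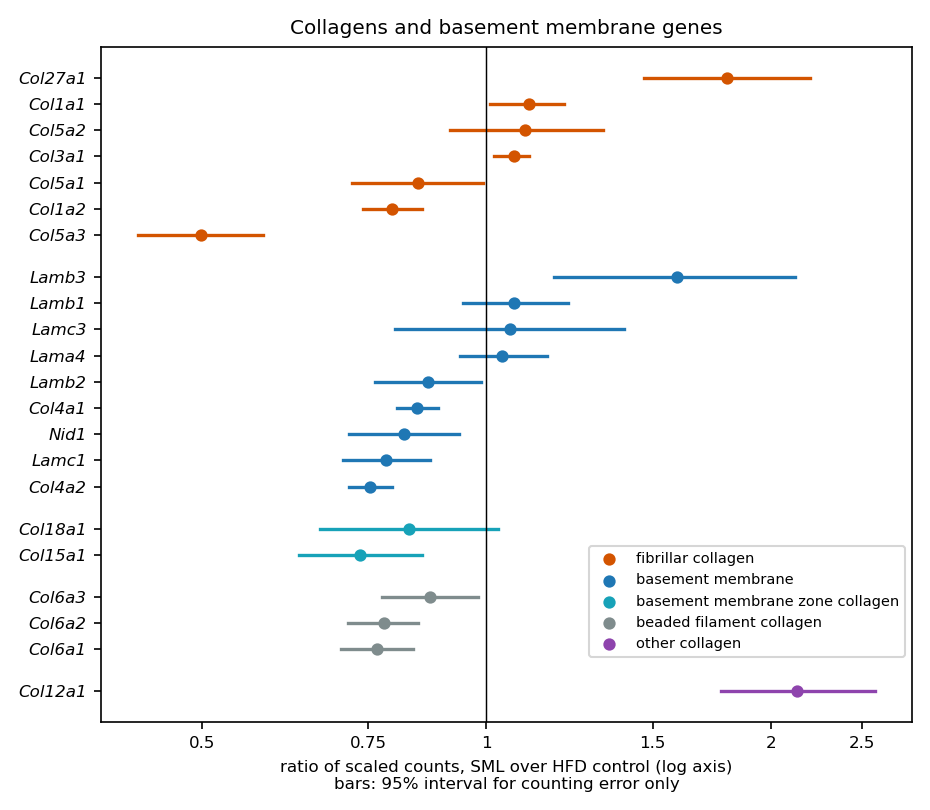
Ratio of scaled counts, SML over HFD control (log axis), for each collagen and basement membrane gene, with bars for the 95% interval of counting error only and a line at 1. Intervals of 12 genes lie below 1 (Col1a2, Col5a1, Col5a3, Col4a1, Col4a2, Lamc1, Lamb2, Nid1, Col15a1, Col6a1, Col6a2 and Col6a3), those of Col1a1, Col3a1, Col27a1, Lamb3 and Col12a1 lie above it, and the fibrillar genes spread from 0.499 for Col5a3 to 1.8 for Col27a1. These counts hold for the deposited scaling, under which the summed counts of all genes had a ratio of 0.963. Intervals that end near 1 depend on that scaling. How many of all genes have such intervals was not counted.

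Fibrillar collagens made up slightly more of the sum of both groups in the SML library, a difference that rested on Col3a1 and on type IV collagen. The summed FPKM of the 7 fibrillar genes was 1.11 times that of the 9 basement membrane genes in SML and 0.959 times in HFD control. On fragments the ratio in SML was 1.17 times that in HFD control (1.12 to 1.22), a value that does not depend on how the libraries are scaled. It was 1.22 (1.17 to 1.28) against type IV collagen alone and 1.03 (0.968 to 1.10) against the laminins alone. Without Col3a1 the value against all basement membrane genes was 1.05 (0.998 to 1.11), an interval that included 1. Leaving out any other single member gave values from 1.11 without Col4a2 to 1.23 without Col1a2. Within the collagen pool type III held 27.5% of the summed FPKM in SML and 22.7% in HFD control, while type IV held 28.2% in SML and 31.0% in HFD control.

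Markers of the cells that make these proteins differed in the same libraries, where 5.45% of all kept genes were higher and 5.74% lower. Of 10 endothelial markers 3 were lower and 0 higher, all 10 had a difference below 0, and their summed level was 175 FPKM in SML against 273 FPKM in HFD control. Of 9 mural cell markers 3 were lower (Abcc9, Des and Rgs5) and 0 higher, 7 had a difference below 0 and 2 above. Their summed level was 155 FPKM in SML against 208 FPKM in HFD control. Des alone gave 55.4 FPKM of that sum in SML and 86.2 FPKM in HFD control. Myh11 went the other way, with a ratio of 1.35 (1.13 to 1.62). The part of skeletal muscle, whose markers are given below, in the levels of Des and Abcc9 was not tested. Of 11 fibroblast and progenitor markers with a row, 1 was higher and 1 lower, and 10 had a difference below 0 against 1 above. Their summed level was 592 FPKM in SML against 854 FPKM in HFD control. Gsn and Ly6a held most of both sums, at 373 and 122 FPKM in SML against 475 and 251 FPKM in HFD control. The fibroblast list shares Dpt, Fbn1 and Mfap5 with the list of other matrix genes below. Of 9 macrophage markers with a row 6 were lower and 0 higher, and 8 had a difference below 0 against 1 above, Mrc1. Their summed level was 276 FPKM in SML against 446 FPKM in HFD control, to which Lyz2 gave 112 and 165 FPKM. All 20 skeletal muscle markers were lower, with a summed 297 FPKM in SML against 4455 FPKM in HFD control, a ratio of 0.0668 (0.0643 to 0.0693), and none was at 0. No chondrocyte or mesothelial marker had a row. All 10 brown adipocyte markers had a row, with a summed 51269 FPKM in SML against 54473 FPKM in HFD control. Of the 9 kept, 1 was higher, Dio2, with a ratio of 1.79 (1.62 to 1.99), and 0 were lower. Prdm16 fell under the filter, at 0.41 FPKM in SML against 1.42 FPKM in HFD control. The part of other cell types in the matrix gene differences was not tested.

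Chains that assemble into one protein did not always keep their proportion. Col1a1 had 0.801 times the FPKM of Col1a2 in SML and 0.573 times in HFD control, so that this proportion was 1.40 times as high in SML (1.24 to 1.56). Col5a3 had 1.23 times the FPKM of Col5a2 in SML and 2.70 times in HFD control, a change of 0.453 (0.356 to 0.577). Lama4 relative to Lamc1 was 1.33 times as high in SML (1.14 to 1.55), and Lamb1 relative to Lamc1 1.37 times (1.16 to 1.61). The shift between the type IV chains was small, with Col4a1 relative to Col4a2 at 1.12 (1.04 to 1.20).

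Type VI collagen was on the lower side in SML. Its chains build the beaded filaments around fat cells, and all 3 intervals lay below 1 under the deposited scaling. That of Col6a3 (0.775 to 0.981) ended near 1 and depends on this scaling. Col6a1 stood at 21.3 FPKM in SML against 27.7 FPKM in HFD control, Col6a2 at 24.5 FPKM in SML against 31.5 FPKM in HFD control, and Col6a3 at 5.43 FPKM in SML against 6.22 FPKM in HFD control. None passed the size rule, and their summed ratio was 0.793 (0.751 to 0.837). Col6a1 relative to Col6a2, its neighbour on chromosome 10, was 0.985 (0.870 to 1.11) times as high in SML, and Col6a3 relative to Col6a1 was 1.14 (0.982 to 1.32) times as high, both intervals including 1. Col15a1 and Col18a1, collagens of the basement membrane zone, had ratios of 0.736 (0.634 to 0.854) and 0.828 (0.667 to 1.03). Of all 15 collagens 10 had a difference below 0 and 5 above.

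**Figure D5:**
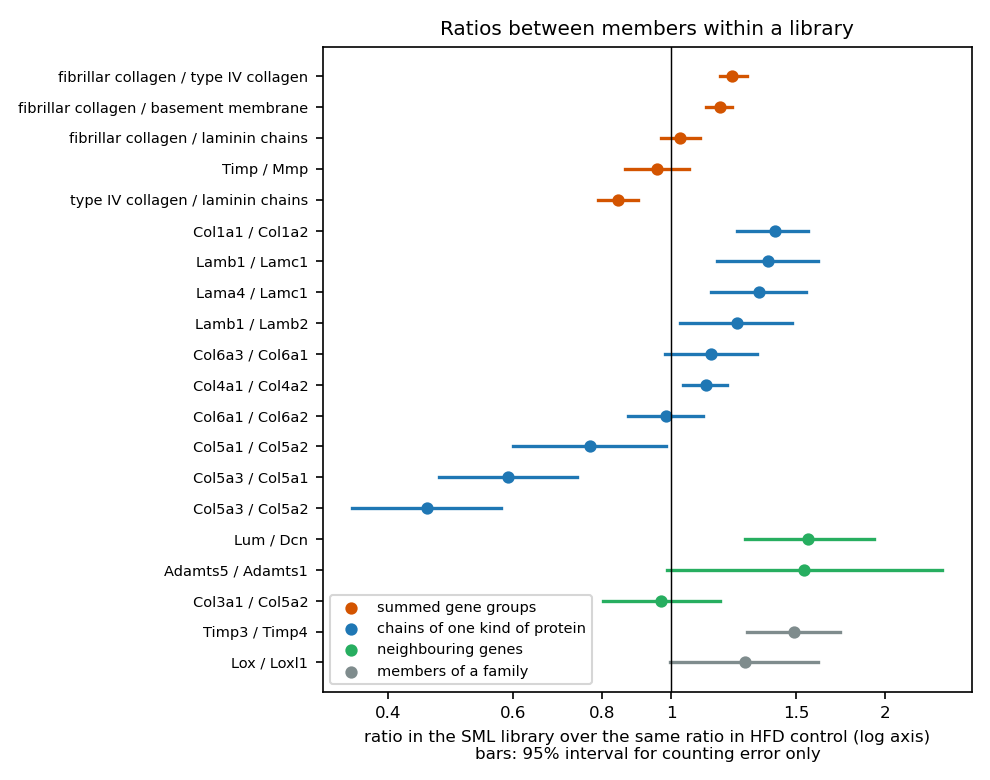
Ratio between 2 genes or gene groups in the SML library over the same ratio in HFD control (log axis), with bars for the 95% interval of counting error only. Col5a3 has the lowest values against its partner chains (0.453 and 0.590), Lum relative to Dcn (1.56) and Adamts5 relative to Adamts1 (1.54) have the highest, and Col6a1 relative to Col6a2 lies at 0.985.

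Neighbouring genes gave mixed pairs. Lum and Dcn encode small leucine-rich proteoglycans that regulate fibril width and lie beside each other on chromosome 10. Lum stood at 12.4 FPKM in SML against 8.32 FPKM in HFD control, a ratio of 1.48 (1.22 to 1.8), whereas Dcn stood at 72.4 FPKM in SML against 75.8 FPKM in HFD control, a ratio of 0.947 (0.878 to 1.02). Across 9524 kept genes the difference ran with GC content (Spearman's rho -0.32, a description of these 2 libraries). After removal of a trend with GC and length, the difference of Lum was 0.31 in place of 0.52 and that of Dcn was -0.45 in place of -0.06, where the transcripts have 41.9% and 37.4% GC. The proportion of Lum to Dcn was 1.56 times as high in SML (1.27 to 1.93). Col3a1 and Col5a2 on chromosome 1 kept theirs, at 0.968 (0.801 to 1.17). Adamts5 and Adamts1 on chromosome 16, proteases of large proteoglycans, had a proportion 1.54 times as high in SML with an interval that included 1 (0.988 to 2.41).

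Col4a1 and Col4a2 lie head to head on chromosome 8. In RefSeq on GRCm38.p6 their transcript starts overlap by 22 bases, and their promoter windows, from 250 bases before the start to 50 after it, share 78 bases. The windows are shown because both genes of the pair were on the lower side in SML. Capitals mark CCAAT on either strand (CCAAT or ATTGG) and TATAAA on either strand (TATAAA or TTTATA), with no overlap between these matches.
Col4a1 promoter window, chr8:11312777-11313076, minus strand: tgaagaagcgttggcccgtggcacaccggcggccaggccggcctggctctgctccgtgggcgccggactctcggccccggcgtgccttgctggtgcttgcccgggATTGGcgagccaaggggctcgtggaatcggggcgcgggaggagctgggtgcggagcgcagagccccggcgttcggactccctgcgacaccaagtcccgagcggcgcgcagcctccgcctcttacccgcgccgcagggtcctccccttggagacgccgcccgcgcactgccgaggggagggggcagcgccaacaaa
Col4a2 promoter window, chr8:11312555-11312854, plus strand: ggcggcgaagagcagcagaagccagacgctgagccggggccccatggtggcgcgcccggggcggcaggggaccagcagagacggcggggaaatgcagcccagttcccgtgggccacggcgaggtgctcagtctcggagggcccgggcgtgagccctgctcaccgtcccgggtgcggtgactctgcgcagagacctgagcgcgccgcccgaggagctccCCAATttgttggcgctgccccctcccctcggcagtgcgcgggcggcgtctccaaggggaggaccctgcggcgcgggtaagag

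Each of the Col4a1 and Col4a2 windows held 1 CCAAT match and no TATAAA match. CCAAT on either strand was in 37.4% of all 32851 promoter windows. Among members with a window it was in 12 of 36, in 4 of 6 basement membrane genes and in 2 of 5 fibrillar genes. Members are counted by gene here, with 41 windows for the 36. TATAAA was in 13.6% of all windows, in 3 of the 36, in 0 of the 6 and in 1 of the 5, Col3a1. GGGCGG on either strand, not marked above, was also counted. It was in 35.7% of all windows, in 26 of the 36, in 4 of the 6 and in 4 of the 5. These are matches of letters and no evidence of a bound factor.

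None of the 3 cross-linking enzymes passed the size rule. Loxl1, the lysyl oxidase of elastic fibres, stood at 26.3 FPKM in SML against 22.03 FPKM in HFD control, a ratio of 1.19 (1.08 to 1.31). Lox, which cross-links collagen and elastin, stood at 4.25 FPKM in SML against 2.80 FPKM in HFD control, a ratio of 1.51 (1.21 to 1.88), and its difference of 0.47 missed the rule and was 0.24 without that trend. Loxl2 had a ratio of 0.893 (0.679 to 1.17). Together they had a ratio of 1.2 (1.10 to 1.30), a sum to which Loxl1 gave most of the fragments.

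No metalloproteinase passed the size rule in either direction. Mmp2, gelatinase A and the most abundant of the 7, stood at 12.3 FPKM in SML against 15.4 FPKM in HFD control, a ratio of 0.802 (0.700 to 0.918). Mmp14, the membrane-bound enzyme that activates it, had a ratio of 1.24 (0.917 to 1.68). For Mmp15, Mmp19, Mmp3, Mmp23 and Mmp28 the intervals also included 1. Their levels ran from 1.90 to 5.82 FPKM in SML and from 1.68 to 6 FPKM in HFD control.

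Among the inhibitors, Timp4, which is abundant in fat, stood at 40.0 FPKM in SML against 55.2 FPKM in HFD control, a ratio of 0.723 (0.646 to 0.808). Timp2 stood at 10.5 FPKM in SML against 12.9 FPKM in HFD control, a ratio of 0.815 (0.712 to 0.931). Timp3, which is held in the matrix, stood at 15.7 FPKM in SML against 14.5 FPKM in HFD control, and its ratio of 1.08 had an interval that included 1 (0.973 to 1.19). The proportion of Timp3 to Timp4 was 1.49 times as high in SML (1.28 to 1.73). Summed inhibitors had 2 times the FPKM of summed metalloproteinases in SML and 2.34 times in HFD control, a change of 0.854 on FPKM. The proportion of summed fragments, in which long transcripts weigh more, changed by 0.956 with an interval that included 1 (0.860 to 1.06). That interval does not apply to the FPKM proportion. Timp1, Timp3 and Timp4 lie inside the synapsin genes Syn1, Syn3 and Syn2, which run on the other strand, and the deposited loci of these inhibitors span 15.84, 9.16 and 14.32 times the annotated gene. The labels do not say whether counting used strand, so their values are uncertain to that extent.

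ADAMTS proteases had low levels. Adamts13, which cleaves von Willebrand factor, had the highest level of this group in SML at 4.46 FPKM, against 3.09 FPKM in HFD control, and a ratio of 1.44 (1.13 to 1.84). Adamts2, which trims the ends of fibrillar procollagens, stood at 1.52 FPKM in both libraries, and Adamts9 at 1.49 FPKM in SML against 1.43 FPKM in HFD control. Adamtsl5, a relative without the protease domain, had a ratio of 0.773 (0.470 to 1.26), and its deposited locus spans 72.27 times the annotated gene. Adamts10, a protease of the microfibril network, was the 1 member under the filter. It was listed at 0.10 FPKM in SML against 1.66 FPKM in HFD control, but one of its 2 rows had an SML FPKM of 0 with 31 fragments, and its ratio of scaled counts was 0.542 (0.350 to 0.808).

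The same kind of row touched Fn1 and Col4a3bp. Fn1, the fibronectin gene, was listed at 1.32 FPKM in SML against 2.10 FPKM in HFD control, while its scaled counts had a ratio of 1.01 (0.815 to 1.25). Its second transcript had 57 fragments and 0 FPKM in SML. Col4a3bp was listed at 2.54 FPKM in SML against 2.17 FPKM in HFD control, with a ratio of scaled counts of 1.65 (1.32 to 2.07). For both genes the deposited FPKM therefore understates the SML level.

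Among the 7 members with 2 transcript rows, counts moved most between the rows of Mmp28 and those of Adamts10. Row 2 of Mmp28 held 100% of its scaled counts in SML and 21.8% in HFD control, yet the gene as a whole had a ratio of 1.05 (0.700 to 1.56) from 47 and 61 fragments. In Col4a3bp the second row held 28.8% in SML and 50.9% in HFD control, and in Fbln2 61.8% in SML and 79.2% in HFD control. In Dcn it held 78.3% in SML and 65.6% in HFD control, and in Sparc 83.1% in SML and 77.2% in HFD control. The second row of Fn1 held 36.3% in SML and 40.8% in HFD control.

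The remaining glycoproteins did not pass the size rule. Bgn, the proteoglycan biglycan, stood at 33.2 FPKM in SML against 37.9 FPKM in HFD control, a ratio of 0.875 (0.795 to 0.961). Fbln2, Fbln5 and Fbln7, fibulins of elastic fibres and basement membranes, had ratios of 0.991 (0.805 to 1.22), 0.980 (0.794 to 1.21) and 0.836 (0.521 to 1.32), all with intervals that included 1.

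Genes outside the name rule that act on the same proteins gave mostly small differences. Of 23 kept genes of collagen folding, modification and secretion, 1 was higher, 0 were lower and the median difference was 0.08. The share past the rule was 4.35%, beside 11.2% of all kept genes. The higher one was P3h4, a partner of collagen-modifying hydroxylases, at 6.64 FPKM in SML against 3.98 FPKM in HFD control, a ratio of 1.66 (1.25 to 2.23). Serpinh1, the collagen chaperone HSP47 and the most abundant of the list, stood at 146 FPKM in SML against 197 FPKM in HFD control, a ratio of 0.739 (0.706 to 0.773), under the rule. Colgalt1, which adds galactose to collagen, had the lowest difference of the list at -0.54.

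Of 28 other kept matrix genes 2 were higher and 1 was lower, with a median of -0.18. That is 10.7% past the rule, near the 11.2% of all kept genes. Aspn, the proteoglycan asporin, stood at 5.77 FPKM in SML against 2.78 FPKM in HFD control, a ratio of 2.07 (1.55 to 2.78). Podn, the related proteoglycan podocan, stood at 4.87 FPKM in SML against 2.90 FPKM in HFD control, and its scaled counts had a ratio of 2.07 (1.63 to 2.65). The FPKM of Podn differed less than its counts, and its difference of 0.59 lay just past the rule of 0.585. Vtn, the plasma and matrix protein vitronectin, was the lower one at 5.52 FPKM in SML against 13.3 FPKM in HFD control, a ratio of 0.414 (0.320 to 0.530). Hspg2, the basement membrane proteoglycan perlecan, stood at 9.66 FPKM in SML against 12.1 FPKM in HFD control, a ratio of 0.797 (0.744 to 0.854), close to those of Col4a1 and Col4a2. Of 16 kept matrix receptors 0 were higher and 0 lower, with a median of -0.16, and Itgb1, the common integrin beta chain, had a ratio of 1.01 (0.946 to 1.09). The ends of the list were low genes that stayed under the rule on the log2(FPKM + 1) scale. Itgav, an integrin alpha chain that binds vitronectin and fibronectin, stood at 1.66 FPKM in SML against 0.85 FPKM in HFD control, a ratio of 1.96 (1.45 to 2.65). Itga3, a laminin-binding alpha chain, stood at 0.70 FPKM in SML against 1.49 FPKM in HFD control, a ratio of 0.473 (0.307 to 0.728).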

How the data were processed

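Brown adipose tissue RNA was deposited as 1 table with 14189 assembled transcripts and 2 value columns per library. FPKM values are the authors' own; CASAVA 1.8, Cufflinks and mm10 appear in the submitters' processing notes, without roles. No label names the aligner, annotation release, filters or use of strand. The count columns were deposited as a scaled signal: low values of symbols with 1 row move in steps of 0.866 (SML) and 0.637 (HFD control), taken as 1 fragment. Of 725 and 513 low values of up to 20 steps, 90.5% and 90.6% were whole within 0.1.

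Rows were summed per symbol, and 30 rows whose symbols had become dates were left out. A mean FPKM of 1 or more was required, and 1.5-fold on log2(FPKM + 1) was the size rule. This scale understates changes of low genes. Ratios use scaled counts, with exact conditional binomial intervals on fragments. Proportions between genes use the conditional odds ratio, or for large sums its normal approximation. On simulated fragments for 9870 genes the rule found 87% of 100 genes made 2-fold higher and 77% of 100 made 2-fold lower, and 65 of 9670 unchanged genes passed it. The interval held 1 for 95.1% of unchanged genes. The simulated fragments varied by counting error alone. These values therefore check the arithmetic and give no rate of false calls between animals or libraries. The trend with GC content and length came from the longest GENCODE M21 transcript of 9524 kept genes, all 52 kept members included. File starts count from 0 and were not printed. Promoter sequences are from RefSeq (GRCm38.p6), where 36 of 53 members had a window of the full length.

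Named members were those past the rule, the 3 most abundant of each role and all fibrillar and basement membrane genes. Other members, and genes of other lists away from their ends, were picked with their values in view. The members and lists were chosen with earlier results of these data known. Python 3.11.15 with pandas 2.3.3 and scipy 1.17.1 was used. One marker list is not reported here.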

Additional observations from a re-analysis of the deposited data

How the results depend on the processing

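No paired analysis was possible because each group had 1 library. For single members 533 of 545 differences under 11 alternative settings kept their side of the rule, 8 fell short of it and 4 newly passed it. Much of this agreement was fixed beforehand. Settings that only filter genes leave each difference as it was, as does the highest row for members with 1 row. The 2-fold rule can only remove calls. Members dropped by a setting are not among the 545. No member past the rule changed sign, while 12 differences of 10 other members did. That of Fn1 was 0.01 with scaled counts and that of Dcn 0.18 with the highest row per symbol. The number of higher members was 0 at a mean FPKM of at least 5 or a 2-fold rule, 4 with the highest row per symbol and 1 after removal of the GC and length trend. The number of lower members was 0 with the 2-fold rule. The fibrillar median was -0.11 at a mean FPKM of at least 5, 0.15 with equal total counts and 0.03 with the trend removed. The basement membrane median was -0.24 and -0.13 in the first 2 of these settings. The summed ratio under equal totals was 1.02 for fibrillar and 0.874 for basement membrane genes. Settings that leave out genes were added after seeing the data: without Col4a1 and Col4a2 the basement membrane median was 0.06 and its summed ratio 0.931, without Col3a1 the summed fibrillar ratio was 0.887, and the proportion of fibrillar to basement membrane genes was 1.05 without Col3a1, 1.23 without Col1a2 and 1.11 without Col4a2. In the collagen processing list the higher count was 2 with a pseudocount of 0.1 and 0 at 2-fold, and the lower count was 1 with that pseudocount or with no filter. In the list of other matrix genes the higher count was 0 at a mean FPKM of at least 5 or 2-fold, and 1 without symbols that had a row at 0 FPKM or with the trend removed. Its lower count was 4 with the pseudocount of 0.1 and 2 with no filter, with scaled counts or with the highest row. The receptor list had 1 higher and 1 lower with the pseudocount of 0.1, and 1 lower with no filter. Over the 9524 kept genes with a GC content and length, 294 were higher and 554 lower with the trend removed, and 505 and 552 without that step. The cause of these shifts was not tested. Timp1, with 6 and 26 fragments, is limited most by depth.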
